A study of Mus musculus with 12 samples.

Results

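The 9 genes described here encode the core enzymes of eicosanoid synthesis: Pla2g4a, Ptgs1, Ptgs2, Ptges, Hpgds, Alox5, Alox5ap, Ltc4s and Lta4h. A gene was read from probes annotated to it alone, and where it had several, from the probe with the highest mean signal over all arrays. Of the 9 genes, 8 had such a probe, against 18194 genes in the whole series, and the signal of Ptgs1 was not analysed here. Of these 8, 6 reached a group mean over 50 in injured or intact cord and were tested, among 10511 genes tested in all. Alox5 and Ptges stayed under 50 in every group, and their values are given without a call.

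The arrays measured Th9 segments of the spinal cord of female C57BL/6J mice (C57BL/6 in the labels) in 4 groups of 3, with 1 array per mouse. The groups were aged injured, young injured, aged intact and young intact (normal) mice. Aged mice were 15 to 18 months old and young mice 2 to 3 months old, and injured cords were collected 9 days after a contusion at Th9 (spinal cord injury, SCI), with the same impact setting in both ages. The intact groups had no lesion. All mice were perfused with heparinized saline before the tissue was taken. A segment holds every cell type of the cord and, after SCI, cells that entered it, so that more cells of a type and more RNA per cell cannot be told apart in these signals.

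Eicosanoids are short-lived lipid mediators made from arachidonic acid. Cytosolic phospholipase A2 frees this fatty acid from membranes, and it then enters the cyclooxygenase branch, which ends in prostaglandins and thromboxane, or the lipoxygenase branch, which ends in leukotrienes. Myeloid cells are a major source of both in inflamed tissue, where these lipids act on vessels, pain fibres and the recruitment of leukocytes.

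Signals are MAS 5.0 intensities scaled by the authors to a trimmed mean of 100 on each array, and 35.0% to 36.7% of probes per array lay above 50. A gene was called at an adjusted p under 0.05 from limma on log2 signals (Benjamini-Hochberg over the 10511 genes). A fold is the ratio of mean signals. It is given as "at least" where a group mean lay under 50 and was set to 50, and not at all where both did. Levels of different genes cannot be ranked, since each probe has its own brightness. Among the arrays, aged injured replicate 1 stood apart. Its mean distance to the other two of its group, over the log2 signals of the genes tested, was 72.5, against 55.9 and 47.5 for aged injured replicates 2 and 3 and 26.2 to 33.8 for the arrays of the other groups. Its 10 neuron markers summed to 1617, against 6859 to 10574 on the other aged injured arrays, 7439 to 11382 on the young injured arrays and 20570 to 21575 on the intact arrays. The difference between the ages after SCI is therefore also given without this array for each tested member. Of the markers of cord tissue, 9 of 10 neuron, 10 of 10 astrocyte and 9 of 9 oligodendrocyte genes passed the cutoff. Between aged and young injured cords 4 of the 10 astrocyte markers and 1 of the 9 oligodendrocyte markers were called lower. Of all genes, 8.99% were called there in either direction. The astrocyte sums did not overlap (12203 to 19770 in aged injured and 22484 to 25489 in young injured cords). Of 9 markers of fibroblasts and meninges tested, 8 rose with injury in each age, against 35.6% of all genes in aged and 33.9% in young mice. None was called between the injured groups (1 of 9 had an unadjusted p under 0.05). In intact cords 3 of the 9 were called lower in aged than in young mice, against 0.809% of all genes called in either direction. For 1 of the 9 the injury difference was called higher in aged than in young mice, against 0.438% of all genes in either direction. Whether a marker was tested only through injured cord, and so had to rise, was not examined for any marker list. The part of these cells in the results was not tested.

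After SCI, the genes of eicosanoid synthesis had higher signals in both ages. In aged mice all 6 members tested rose (6 of 6 called, against 75.5% of all genes tested, 35.6% of them higher), and in young mice 5 of 6 rose (against 68.0% of all genes, 33.9% higher). On each of the 6 the injured arrays of an age all lay above its intact arrays, which held in the same direction for 36.7% of genes in aged and 37.5% in young mice. Ptgs2, Ltc4s and Hpgds (3 of the 6) were under 50 in both intact groups and were tested only because of their level in injured cord, so that they had to differ and their calls add nothing to these counts. Between aged and young injured cords 1 of 6 members was called, Alox5ap (against 8.99% of all genes, 4.41% higher), and between aged and young intact cords none was (against 0.809%).

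**Figure D1:**
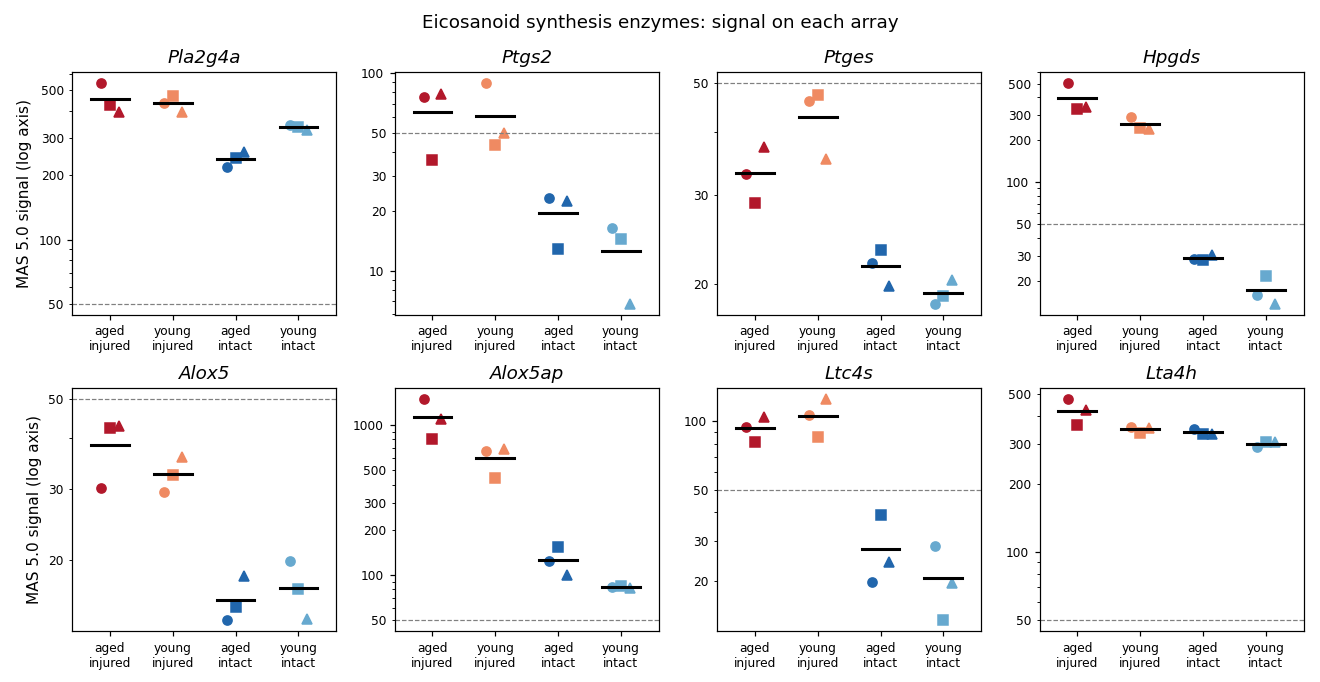
MAS 5.0 signal (log axis, with its own range in each panel) of the 8 members with a probe, on each array of aged injured, young injured, aged intact and young intact cords. Points are arrays (circle, square and triangle for replicates 1, 2 and 3), bars are group means and the dashed line is the cutoff of 50. Injured arrays lie above the intact arrays of their age in every panel, and Ptges and Alox5 lie under the cutoff on all arrays.

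Pla2g4a encodes the cytosolic phospholipase A2 that starts the pathway. Its signals were 542.6, 426.0 and 395.4 in aged injured and 438.8, 469.7 and 396.3 in young injured cords, against 218.1, 240.9 and 257.6 in aged intact and 344.6, 337.3 and 326.9 in young intact cords. The injured arrays of both ages shared 1 range, whereas all aged intact arrays lay under all young intact arrays. Pla2g4a rose 1.90-fold in aged injured against aged intact cords (log2 fold change 0.92, standard error 0.12, adjusted p = 3.60e-05) and 1.29-fold in young injured against young intact cords (log2 0.37, adjusted p = 0.0152). The call in young mice ended without young injured replicate 2 (adjusted p = 0.0550).

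Pla2g4a was the only member lower in aged than in young intact cords on every array. Its mean was 239 ± 19.8 in aged intact and 336 ± 8.90 in young intact cords (SD, n = 3 each), which is 1.41-fold lower in aged mice with no overlap, but the difference missed the threshold (log2 -0.50, 95% confidence interval -0.75 to -0.24, adjusted p = 0.105). It passed with the intact arrays fitted alone (adjusted p = 0.00209) and without aged injured replicate 1 (adjusted p = 0.00798). The means were 455 ± 77.7 in aged injured and 435 ± 36.9 in young injured cords (SD, n = 3 each), with overlapping arrays and a log2 difference of 0.05 (interval -0.20 to 0.31, adjusted p = 0.759), or -0.08 without aged injured replicate 1 (adjusted p = 0.683). The injury difference was larger in aged than in young mice by 0.55 on the log2 scale (interval 0.19 to 0.91), with an unadjusted p of 0.00632 and an adjusted p of 0.155 from limma. No member passed this test of the interaction of age and injury (0 of 6, of which 1 had an unadjusted p under 0.05, against 0.438% of all genes called).

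In the cyclooxygenase branch, Ptgs2 encodes cyclooxygenase 2, the inducible enzyme that makes prostaglandin H2. Its signals were 76.0, 36.5 and 78.2 in aged injured and 89.1, 43.4 and 49.6 in young injured cords, against 23.3, 12.9 and 22.6 in aged intact and 16.5, 14.5 and 6.8 in young intact cords. In each injured group at least 1 array lay under 50, and no intact array reached the lowest injured one. The rise was at least 1.27-fold in aged (log2 1.67, adjusted p = 0.00478) and at least 1.21-fold in young mice (log2 2.29, adjusted p = 8.65e-04). Aged and young injured cords had overlapping arrays, with means of 63.6 ± 23.5 in aged injured and 60.7 ± 24.8 in young injured cords (SD, n = 3 each). The log2 difference was 0.06, and its interval ran from -0.90 to 1.02 (adjusted p = 0.933, and -0.11 with adjusted p = 0.923 without aged injured replicate 1). A second Ptgs2 probe read 3.6 to 11.8 on all arrays and was not called with injury in either age (adjusted p = 0.463 in aged and 0.299 in young mice), so that the rise of Ptgs2 rests on 1 probe near the cutoff.

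Ptges encodes the microsomal prostaglandin E synthase that acts after cyclooxygenase 2. Its signals were 33.1, 29.0 and 37.4 in aged injured and 46.0, 47.4 and 35.3 in young injured cords, against 22.0, 23.4 and 19.8 in aged intact and 18.3, 19.0 and 20.4 in young intact cords. All injured arrays lay above all intact ones, and the arrays of the 2 ages overlapped after injury.

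Hpgds encodes the hematopoietic prostaglandin D synthase, an enzyme of mast cells, microglia and some T cells and macrophages. Its signals were 504.9, 329.2 and 342.0 in aged injured and 289.2, 239.8 and 239.3 in young injured cords, against 28.5, 27.8 and 30.4 in aged intact and 15.9, 21.6 and 13.7 in young intact cords. The 4 groups did not overlap at all and fell in this order. Hpgds rose at least 7.84-fold in aged (log2 3.73, adjusted p = 6.21e-08) and at least 5.12-fold in young mice (log2 3.93, adjusted p = 4.89e-08). Its mean was 392 ± 98.0 in aged injured and 256 ± 28.7 in young injured cords (SD, n = 3 each), 1.53-fold higher in aged mice, and this difference missed the threshold (log2 0.59, interval 0.17 to 1.01, adjusted p = 0.0720, and 0.40 with adjusted p = 0.202 without aged injured replicate 1). It passed on the log2(signal + 16) scale (adjusted p = 0.0353) and without aged injured replicate 2 (adjusted p = 0.0328). In intact cords both means lay under 50 (28.9 ± 1.35 in aged and 17.1 ± 4.08 in young intact cords, SD, n = 3 each), so that no fold is given, and the difference was not called (adjusted p = 0.126).

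The upstream 250 bases of Hpgds, Ptgs2 and Ltc4s are shown because these are the 3 members whose group means lay under the cutoff in intact cord and above it after SCI. They are RefSeq windows of the mouse build GRCm38.p6, printed 5′ to 3′ on the gene's strand and ending at the base before the annotated start, with motif matches on either strand in capitals. The positions are chr6:65144731-65144980 on the minus strand for Hpgds, chr1:150099781-150100030 on the plus strand for Ptgs2 and chr11:50238533-50238782 on the minus strand for Ltc4s.
Hpgds: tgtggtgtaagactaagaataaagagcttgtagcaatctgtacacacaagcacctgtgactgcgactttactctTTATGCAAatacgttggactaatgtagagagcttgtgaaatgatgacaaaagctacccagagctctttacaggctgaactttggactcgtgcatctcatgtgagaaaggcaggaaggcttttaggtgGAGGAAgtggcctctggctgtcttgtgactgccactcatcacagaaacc
Ptgs2: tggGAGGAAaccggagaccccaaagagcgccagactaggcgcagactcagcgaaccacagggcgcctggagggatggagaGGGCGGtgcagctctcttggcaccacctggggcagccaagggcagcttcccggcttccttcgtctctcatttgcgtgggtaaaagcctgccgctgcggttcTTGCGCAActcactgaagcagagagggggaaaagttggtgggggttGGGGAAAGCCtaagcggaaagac
Ltc4s: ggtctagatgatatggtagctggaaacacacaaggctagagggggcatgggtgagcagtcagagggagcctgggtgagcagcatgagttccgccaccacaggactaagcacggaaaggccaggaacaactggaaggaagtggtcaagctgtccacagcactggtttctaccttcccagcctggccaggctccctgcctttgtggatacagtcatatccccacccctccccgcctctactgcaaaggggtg
The letters searched on both strands were TATAAA (known as the TATA box), CCAAT (the box of that name), GGGCGG (Sp1), TGACG (from the cyclic AMP response element), TGANTCA (AP-1), TTNNGCAA (C/EBP), GAGGAA (PU.1) and the NF-kB motif, which can overlap the Sp1 letters. Hpgds holds TTATGCAA at -176 to -169 and GAGGAA at -49 to -44. Ptgs2 holds TTGCGCAA at -69 to -62, which reads as a match on both strands, besides GAGGAA at -247 to -242 and GGGCGG at -170 to -165. It also holds GGGGAAAGCC, a match of the loose NF-kB letters, at -23 to -14. Ltc4s holds none of the letters in this window. The 8 members with a window include Ptgs1, which had no probe, and leave out Alox5ap. Of these 8, 6 held GAGGAA, Ptgs1 among them, and 2 held TTNNGCAA, against 23.3% and 9.56% of 32851 promoter windows of the same length. NF-kB letters stood in 4 of 8 members and in 45.8% of all windows, and Sp1 letters in 3 of 8 and in 32.7%. CCAAT stood in 1 of 8 members, against 33.8% of windows, and the TATA box, the cyclic AMP element and the AP-1 letters in 0 of 8, against 12.4%, 17.8% and 6.75%. These are matches of letters and not measured binding sites. Pla2g4a, which also had no match, and Ptgs2 lie head to head on opposite strands of chromosome 1, with 2 annotated genes between them and no protein-coding one.

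In the lipoxygenase branch, Alox5ap encodes FLAP, the membrane protein that presents arachidonic acid to 5-lipoxygenase. Its signals were 1482.7, 798.4 and 1085.1 in aged injured and 669.8, 442.0 and 689.6 in young injured cords, against 123.3, 152.5 and 100.1 in aged intact and 82.4, 84.2 and 81.9 in young intact cords. The 4 groups fell in this order with no overlap, and the lowest aged injured array lay above the highest young injured one. Alox5ap rose 8.96-fold in aged (log2 3.14, standard error 0.23, adjusted p = 8.74e-07) and 7.25-fold in young mice (log2 2.83, adjusted p = 2.52e-06). Of the 3 tested members whose group means all lay above 50, it had the largest folds in both ages.

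Alox5ap was also the member that differed between the ages after SCI. Its mean was 1122 ± 344 in aged injured and 600.5 ± 138 in young injured cords (SD, n = 3 each), 1.87-fold higher in aged mice (log2 0.88, interval 0.37 to 1.40, adjusted p = 0.0404). The call ended without any 1 of 9 of the 12 arrays (adjusted p of 0.0596 to 0.130), namely each young intact and each young injured array, aged intact replicate 1 and aged injured replicates 1 and 3. Without aged injured replicate 1 the log2 difference was 0.66 (adjusted p = 0.0817), and with the injured arrays fitted alone the adjusted p was 0.178. Alox5ap averaged 125 ± 26.3 in aged intact and 82.8 ± 1.21 in young intact cords (SD, n = 3 each), 1.51-fold higher in aged mice with no overlap, and missed the threshold (log2 0.58, interval 0.06 to 1.09, adjusted p = 0.408, or 0.0321 with the intact arrays fitted alone). The injury difference was not shown to differ between the ages (log2 0.31, adjusted p = 0.630).

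Alox5 encodes 5-lipoxygenase itself, which needs FLAP for leukotriene synthesis in cells. Its signals were 30.2, 42.4 and 42.9 in aged injured and 29.5, 32.4 and 35.9 in young injured cords, against 14.2, 15.3 and 18.2 in aged intact and 19.9, 16.9 and 14.3 in young intact cords. All injured arrays lay above all intact ones, and the arrays of the 2 ages overlapped both after injury and in intact cord.

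Ltc4s encodes leukotriene C4 synthase, which couples leukotriene A4 to glutathione and opens the way to the cysteinyl leukotrienes. Its signals were 94.8, 80.9 and 104.6 in aged injured and 106.7, 85.2 and 125.1 in young injured cords, against 19.9, 39.0 and 24.3 in aged intact and 28.6, 13.5 and 19.7 in young intact cords. All injured arrays lay above 50 and all intact arrays under it, and the ages overlapped in both conditions. Ltc4s rose at least 1.87-fold in aged (log2 1.80, adjusted p = 2.42e-04) and at least 2.11-fold in young mice (log2 2.41, adjusted p = 4.75e-05). The difference between aged and young injured cords was -0.17 on the log2 scale, with an interval of -0.83 to 0.49 (adjusted p = 0.711, and -0.18 with adjusted p = 0.810 without aged injured replicate 1).

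Lta4h encodes leukotriene A4 hydrolase, which makes the neutrophil attractant leukotriene B4 and is present in most tissues. Its signals were 474.5, 364.1 and 424.5 in aged injured and 358.0, 335.4 and 353.2 in young injured cords, against 350.2, 334.2 and 333.3 in aged intact and 290.6, 307.3 and 306.7 in young intact cords. The spread over all arrays was narrow, and aged arrays lay above young ones without overlap in each condition. Lta4h rose 1.24-fold in aged injured against aged intact cords (log2 0.30, adjusted p = 0.00867), while the log2 difference of 0.21 in young mice missed the threshold (adjusted p = 0.0530) and passed after quantile normalization (adjusted p = 0.0214), with the young arrays fitted alone (0.0232) and without aged injured replicate 1 (0.0173) or 2 (0.0144). Between the ages the log2 difference was 0.26 in injured cords (interval 0.07 to 0.46, adjusted p = 0.0800, and 0.17 with adjusted p = 0.227 without aged injured replicate 1) and 0.17 in intact cords (adjusted p = 0.582). The first of these passed without aged injured replicate 2 (adjusted p = 0.00901). The other Lta4h probes lay under 50 on all arrays and are no check of this gene.

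**Figure D2:**
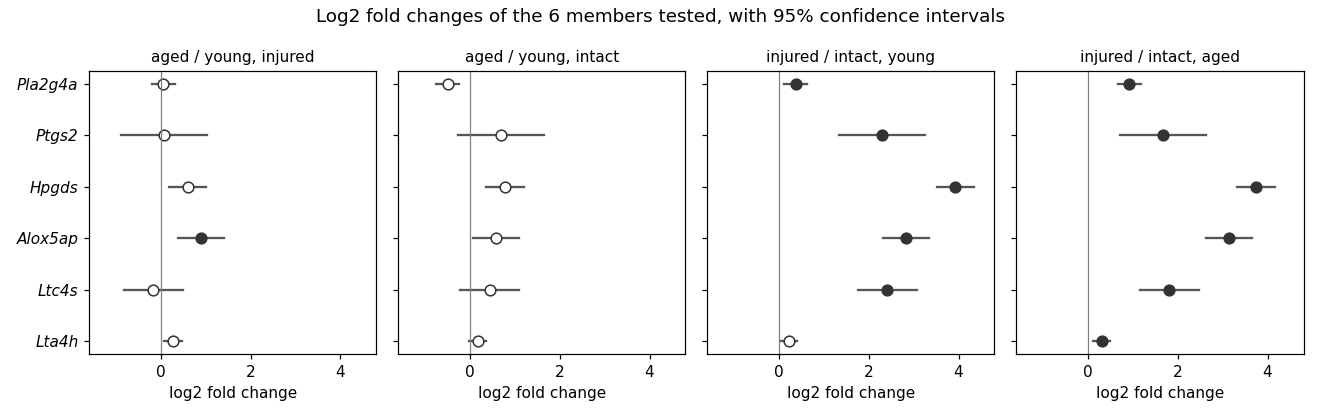
Log2 fold change (points) with 95% confidence interval (lines) of the 6 members tested, in aged against young injured cords, aged against young intact cords, young injured against intact cords and aged injured against intact cords. Filled points passed an adjusted p of 0.05, which in the first panel is Alox5ap alone and in the second none.

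Between the ages after SCI, aged injured arrays lay above all young injured arrays on 3 of 6 members tested, Alox5ap, Hpgds and Lta4h, and below them on 0 (against 14.0% of all genes tested above and 28.1% apart in either direction). The median log2 difference of the 6 was 0.16, against -0.04 over all genes. In intact cords the aged arrays lay above the young ones on Alox5ap, Hpgds and Lta4h and below them on Pla2g4a, which is 4 of 6 members apart against 25.5% of all genes, and limma called 0 of 6, of which 3 had an unadjusted p under 0.05. Aged injured replicate 1 had the highest signal of all 12 arrays for Pla2g4a, Hpgds, Alox5ap and Lta4h.

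Across the 12 arrays, Alox5ap and Hpgds had closely related profiles, with a Pearson r of 0.984 between their log2 signals. As a description over arrays that share the split into injured and intact cords, the genes most like Hpgds were Epsti1, Blnk and Adgre1 (r of 0.998, 0.998 and 0.997), the last being the macrophage marker F4/80. Those most like Alox5ap were Bmp2k, Cdc25b and Rps19 (0.998, 0.996 and 0.996), and those most like Ltc4s were Csf3r, Col14a1 and Gpx3 (0.986, 0.982 and 0.976). Ptgs2 lay nearest to Ccdc122, Cenpj and Zfp703 (0.969, 0.964 and 0.964), Lta4h to Srsf1, Exosc8 and Ssr1 (0.966, 0.964 and 0.961) and Pla2g4a to Ufm1, Rap1a and Cmpk1 (0.977, 0.962 and 0.961). An r above 0.9 was shared with 2289 of the 10511 genes for Alox5ap and 2281 for Hpgds, but with 84 for Pla2g4a and 143 for Lta4h, so that the profile of the first pair was that of a large part of the array.

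Macrophages and microglia carry these enzymes, and some of their markers were called in each of the injury and age comparisons. The 14 macrophage and microglia markers summed to 30915 to 36273 in aged injured and 24909 to 31697 in young injured cords, against 5475 to 5728 in aged intact and 3082 to 3385 in young intact cords. Of the 14, 13 were called higher with injury in each age, against 35.6% of all genes in aged and 33.9% in young mice. Between the ages 4 were called higher in aged injured and 9 in aged intact cords than in young ones. Of all genes, 4.41% were called higher in aged injured cords, and 0.809% were called in either direction in intact cords. Among the 4 was Adgre1, with a log2 difference of 0.67 (adjusted p = 0.0416). The median log2 rise of the 14 with injury was 3.27 in aged and 3.70 in young mice. In limma's test of the interaction 3 of the 14 were called lower, against 0.438% of all genes called in either direction, and 9 had an unadjusted p under 0.05. Whether any of the 14 was tested only through injured cord was not examined. The part of these cells in the differences of Alox5ap and Hpgds was not tested. The 10 neutrophil markers summed to 1248 to 4548 in aged injured and 1557 to 2719 in young injured cords, against 169 to 1639 in aged intact and 593 to 924 in young intact cords. Of 7 tested, 3 were called higher with injury in aged and 2 in young mice, near the shares of all genes (35.6% and 33.9%). Between the ages limma called no neutrophil marker (1 of 7 had an unadjusted p under 0.05 in injured and 0 of 7 in intact cords).

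Mast cells express Hpgds and leukotriene enzymes, and platelets express thromboxane synthase. The 10 mast cell markers summed to 71.3 to 91.7 in aged injured and 108 to 171 in young injured cords, against 91.6 to 152 in aged intact and 121 to 146 in young intact cords, and the ranges of aged injured and aged intact cords met only at their ends. Kit alone of these genes passed the cutoff, so that the sums are mostly of genes under it. Kit was called lower in aged injured than in aged intact cords (log2 -0.58, adjusted p = 0.0441), where 75.5% of all genes were called and 35.6% rose. The mast cell protease gene Cpa3 had means of 6.03 in aged injured and 10.4 in young injured cords, against 8.47 in aged intact and 5.63 in young intact cords. The 7 platelet markers summed to 942 to 1654 in aged injured and 477 to 704 in young injured cords, against 155 to 190 in aged intact and 174 to 201 in young intact cords. Most of this sum was Pf4, which macrophages also express (means of 1144 in aged injured and 462 in young injured cords, against 103 in aged intact and 100.4 in young intact cords), and the platelet genes Ppbp, Gp9 and Treml1 lay under 50 in every group. Pf4 and Itga2b were the 2 platelet markers tested. Both were called higher with injury in each age, where 35.6% of all genes in aged and 33.9% in young mice rose. Whether either was tested only through its level in injured cord, and so had to rise, was not examined. In injured cords 1 of the 2 was called higher in aged mice, against 4.41% of all genes, and in intact cords none was called.

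**Figure D3:**
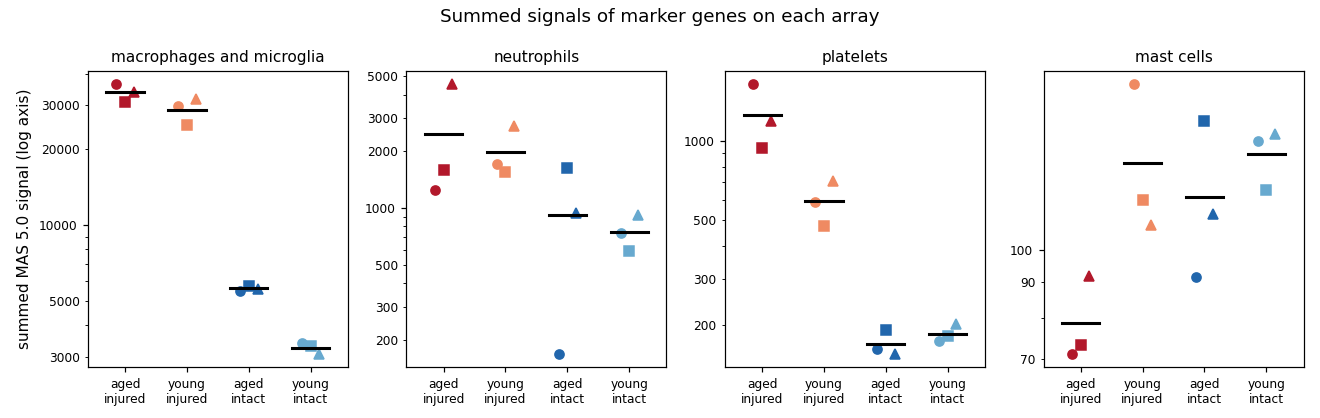
Summed MAS 5.0 signals (log axis) of marker genes of macrophages and microglia, neutrophils, platelets and mast cells on each array of aged injured, young injured, aged intact and young intact cords. Points are arrays (circle, square and triangle for replicates 1, 2 and 3) and bars are group means. The macrophage and microglia sum lies between 30915 and 36273 in aged injured cords and between 3082 and 3385 in young intact cords. The mean mast cell sum is lowest in aged injured cords, but of its 10 markers only Kit passed the cutoff.

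Beyond the 9 members, 79 further genes of eicosanoid release, synthesis, inactivation and reception were listed, of which 70 had a probe, 38 were tested and 32 lay under the cutoff in every group. In aged mice 20 of the 38 rose and 10 fell with injury, where 75.5% of all genes were called and 35.6% rose. In young mice 19 rose and 8 fell, where 68.0% of all genes were called and 33.9% rose. Of the 38, 5 were tested only through their level in injured cord (Cyp4f18, Cysltr1, Ggt5, Ptger2 and Tbxas1) and had to be higher there. Between aged and young injured cords 6 were higher and 4 lower in aged mice, where 8.99% of all genes were called and 4.41% were higher, and the median log2 difference was -0.01, against -0.04 over all genes. In intact cords 1 was lower and none higher, where 0.809% of all genes were called. In limma's test of the interaction 0 of 38 were called, and 11 had an unadjusted p under 0.05.

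Thromboxane and prostacyclin synthase moved in opposite directions with age after SCI. Tbxas1, the thromboxane synthase of platelets and macrophages, had signals of 463.5, 262.7 and 343.4 in aged injured and 159.5, 135.8 and 184.3 in young injured cords, against 27.4, 32.3 and 31.4 in aged intact and 20.3, 19.9 and 18.4 in young intact cords. It was 2.23-fold higher in aged than in young injured cords (log2 1.13, standard error 0.19, adjusted p = 0.0102, and 0.92 with adjusted p = 0.00823 without aged injured replicate 1), and all aged injured arrays lay above all young injured ones. Ptgis, the prostacyclin synthase, had 116.4, 99.6 and 102.4 in aged injured and 245.7, 167.5 and 190.2 in young injured cords, against 87.4, 111.9 and 71.5 in aged intact and 93.1, 122.1 and 75.1 in young intact cords. It was 1.90-fold lower in aged than in young injured cords (log2 -0.91, adjusted p = 0.0269, and -0.98 with adjusted p = 0.0267 without aged injured replicate 1). It rose 2.08-fold with injury in young mice (adjusted p = 0.00101) and was not called with injury in aged mice (log2 0.25, adjusted p = 0.282), although the difference between these injury responses itself was not called (log2 -0.81, adjusted p = 0.220). Its call between the ages ended without young injured replicate 1 or 3 or aged injured replicate 3 (adjusted p of 0.0805, 0.0615 and 0.0649).

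Ptgds, the lipocalin-type prostaglandin D synthase of meninges and oligodendrocytes, fell with injury in aged mice, while Hpgds rose in both ages. Ptgds was not called with injury in young mice (log2 -0.07, adjusted p = 0.590) or for the interaction (log2 -0.36, adjusted p = 0.280). Its signals were 3534.1, 3760.0 and 2766.1 in aged injured and 5080.8, 4364.4 and 4907.3 in young injured cords, against 4433.6, 4962.8 and 4107.3 in aged intact and 5159.4, 4957.4 and 4914.7 in young intact cords. It was 1.43-fold lower in aged than in young injured cords (log2 -0.52, adjusted p = 0.0205, and -0.57 with adjusted p = 0.0178 without aged injured replicate 1) and 1.34-fold lower in aged injured than in aged intact cords (adjusted p = 0.00397), and the first of these calls ended without young injured replicate 1 or 3 (adjusted p of 0.0653 and 0.0591). The 9 oligodendrocyte markers summed to 15650 to 21405 in aged injured and 23640 to 25741 in young injured cords. They were also apart without injury, at 21215 to 22823 in aged intact and 25257 to 26746 in young intact cords. The fibroblast and meninges markers summed to 13029 to 18255 in aged injured and 14038 to 18884 in young injured cords, which overlap. The part of these cells in the difference of Ptgds was not tested.

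Of 5 receptors tested, all 5 rose with injury in aged and 4 in young mice (35.6% and 33.9% of all genes rose in aged and young mice), but Ptger2 and Cysltr1 (2 of the 5) were tested only through their level in injured cord. Ptger2, a prostaglandin E2 receptor, had signals of 143.9, 71.7 and 80.4 in aged injured and 42.5, 32.4 and 36.8 in young injured cords, against 18.6, 24.4 and 24.9 in aged intact and 23.4, 20.9 and 23.5 in young intact cords. Its mean lay above 50 in the aged injured group alone (98.7, against 37.2 in young injured cords), so that it was tested only because of that group and its calls add nothing to the counts. Ptger4, another prostaglandin E2 receptor, rose 2.20-fold in aged and 2.36-fold in young mice, and Cysltr1, a cysteinyl leukotriene receptor, at least 2.34-fold in aged and at least 1.63-fold in young mice. Gpr17, a receptor of oligodendrocyte precursors that has been studied as a leukotriene receptor, was the 1 gene of the list called between intact cords, at 84.9, 88.4 and 94.3 in aged intact against 190.5, 244.8 and 223.2 in young intact cords (2.46-fold lower, adjusted p = 0.0208). This call ended without any 1 of the intact arrays (adjusted p of 0.0531 to 0.101).

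Among genes of inactivation and export, 4 of 7 rose and 1 fell in each age with injury, a share called near that of all genes (75.5% in aged and 68.0% in young mice). Hpgd, which oxidizes and inactivates prostaglandins, rose 3.36-fold in aged and 5.29-fold in young mice. Ptgr1, a reductase of prostaglandins and leukotriene B4, rose 6.49-fold in aged and 3.33-fold in young mice. Among lipoxygenase and P450 genes, Cotl1, whose product binds 5-lipoxygenase, rose 5.36-fold in aged and 3.97-fold in young mice, and stood higher in aged injured than in young injured cords (log2 0.49, adjusted p = 0.0309), a call that ended without young injured replicate 1 or 2 or aged injured replicate 1 or 3 (adjusted p of 0.0526 to 0.0823). Of 13 genes of arachidonate release and handling, 7 rose and 3 fell in aged and 5 rose and 3 fell in young mice, which is also near the share of all genes. The largest rise was that of the lysosomal phospholipase Pla2g15, which rose 5.69-fold in aged and at least 4.50-fold in young mice. Of the 10 genes of the list called between aged and young injured cords, 8 lost their call when one or another array was left out. Tbxas1 kept it with each of the 12 arrays left out in turn, and so did Ptger2, which was tested only through its aged injured level. With the injured arrays fitted alone none of the 10 passed (adjusted p of 0.108 to 0.206).

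**Figure D4:**
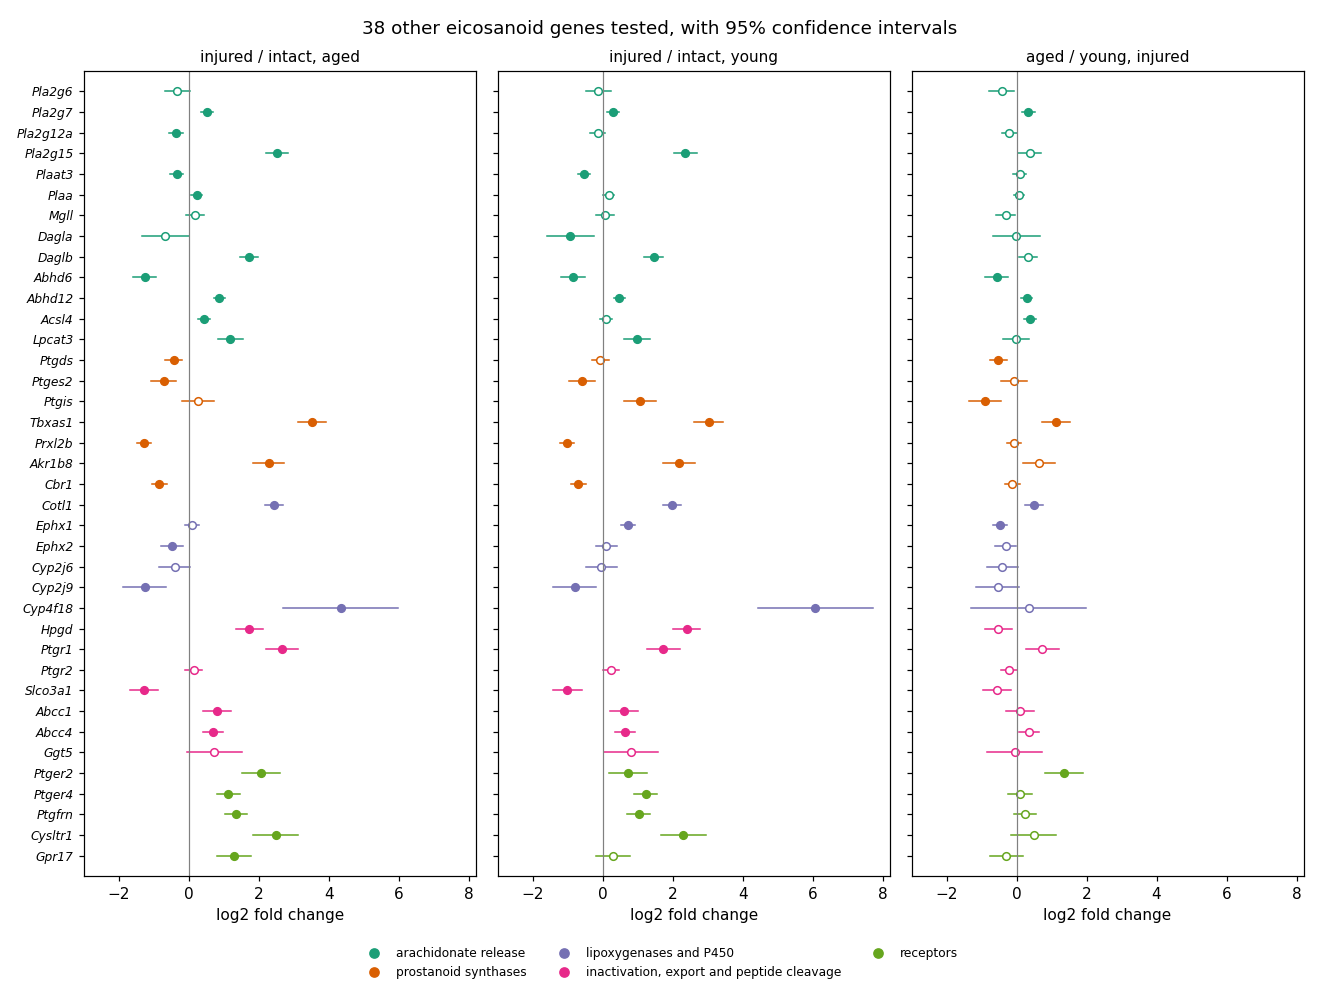
Log2 fold change with 95% confidence interval of the 38 other eicosanoid genes tested, by role, in aged injured against aged intact cords, young injured against young intact cords and aged injured against young injured cords. Filled points passed an adjusted p of 0.05, 30 genes in the first panel, 27 in the second and 10 in the third.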

How the data were processed

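Spinal cord RNA of 12 mice was hybridized to 1 Affymetrix GeneChip mouse genome array each. The authors converted the images with the MAS 5.0 algorithm, and the deposited values are linear signal intensities with a trimmed mean of 100 per array. The array holds 45101 probes. The annotation table gave 34958 of them 1 gene (used here), 932 more than 1 gene and 9211 no gene. From the brightest probe per gene, 10511 of 18194 genes with a group mean above 50 were tested with limma 3.58.1 (R 4.3.3, lmFit and eBayes with a trend) on log2 signals, with 1 mean per group over all 12 arrays. P-values were adjusted by Benjamini-Hochberg over these genes. The fit was run on simulated data with independent errors and, for each gene, the same spread in all groups. In the real data the aged injured arrays lay further apart (mean distance within the group 58.6, against 31.4 in young injured cords). The simulation is therefore no check of the calls between the ages. Named were all members, the up to 10 genes of the pathway list with the largest called change per comparison, and the 3 genes most correlated with each member. The members and all lists were chosen with earlier results of these data known. The labels give no array batch, and arrays limit the precision by their number. Promoter windows came from RefSeq (GRCm38.p6), and Alox5ap had none. Alternatives left out the cutoff or 1 array, added 16 before log2, used quantile normalization, eBayes without a trend, the arrays compared alone, a replicate block, other probes, or the signal and 2-fold cutoffs of the study.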

Additional observations from a re-analysis of the deposited data

How the results depend on the processing

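The counts of calls between the ages and of the interaction changed with the settings. Against 1 member called between aged and young injured cords, 0 were called without the cutoff on signal, with the injured arrays alone and under the cutoffs of the study, and 2 on the log2(signal + 16) scale. With 1 array left out there were 0 to 3 in injured cords, 0 to 2 in intact cords (2 with the intact arrays alone), 4 to 6 with injury in young mice and 6 each time in aged mice. Genes called numbered 945 between injured ages, but 0 with these arrays alone, 198 under the cutoffs of the study and 296 to 3074 with 1 array left out. The 198 come from 1 probe per gene and are not the count of the paper, which is larger. In intact cords there were 85, but 494 with these arrays alone and 33 to 216 with 1 array left out. For the interaction there were 46, but 22 without the cutoff, 27 without a trend, 22 with a replicate block and 7 to 526 with 1 array left out. The cause was not tested. Of 18 pairs of arrays with the same replicate number, 2 correlated above 0.1 in their deviations from the group means. These were young injured with aged injured replicate 1 (r = 0.60) and replicate 2 (r = 0.67), while replicate 3 had 0.015. Young injured replicate 1 with aged injured replicate 2 had -0.59, and young injured replicate 2 with aged injured replicate 1 had -0.63. In all, 4 of 12 arrays correlated best with their number. What these arrays shared was not tested. The replicate block left 1, 0, 5, 6 and 0 members called. Directions turned for the interaction of Hpgds (0.12 on the log2(signal + 16) scale), for aged against young injured cords with 1 array left out in Ptgs2 (log2 -0.15 to 0.42) and Pla2g4a (-0.080 to 0.15), for Ptgs2 on its other probe (-1.45e-04), and for Lta4h on dim probes (young injury -0.050 on one, and on another -0.48 for injured ages, -0.060 for intact ages, -0.28 for aged injury and -0.42 for the interaction).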
